A study of Mus musculus with 23 samples.

Results

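Conventional dendritic cells of type 2 (cDC2) and plasmacytoid dendritic cells (pDC) from the spleens of wild-type (WT) mice were compared through 6 arrays, the 3 titled WT cDC2 and the 3 titled WT pDC, of 23 arrays in all. Members were taken by title. The series profiled sorted splenic cDC1, cDC2 and pDC of WT mice and of mice labelled Bcl6cKO, by name a conditional knockout of the repressor Bcl6, as biotin-labelled cDNA made from total RNA. Its other arrays were 3 of WT cDC1, 4 of cKO cDC1, 5 of cKO cDC2 and 5 of cKO pDC. Both WT groups carry no knockout by their labels, and no treatment of the mice is given. Spleens were minced and digested with collagenase B and DNase I, and red cells were lysed before the sort. The strain, age and sex of the mice, the sort gates, the promoter that drove Cre and the number of mice per array are not given in the sources used here. Nothing says that the 3 arrays of a group came from separate mice. Each p-value thus speaks only of the variation among arrays of the same group, pooled over all 23 arrays. That variation may be technical, and 3 arrays per WT group limit the precision.

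cDC2 sample blood-borne antigen, process it and present it on MHC class II to CD4 T cells. pDC carry the nucleic acid sensors TLR7 and TLR9 in endosomes and secrete large amounts of type I interferon after sensing viral RNA or DNA. The E protein TCF4 (E2-2) sustains the pDC programme, and the inhibitor ID2, which binds E proteins and keeps them off DNA, marks conventional dendritic cells.

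Levels are log2 of the deposited array intensities, given for arrays 1, 2 and 3 of a group in that order, and differences are log2 WT cDC2 minus log2 WT pDC, so that 1 unit is a doubling. Each difference is followed by its standard error (SE) from limma, a linear model fitted over all 23 arrays as 6 group means, and by a two-sided p adjusted by Benjamini-Hochberg over the 12157 genes tested. A gene is said to rise or fall in WT cDC2 where that adjusted p was below 0.05, and for some of these the p itself is not repeated. Where a list is said to hold no rise or no fall, limma's unadjusted p below 0.05 found none either in that direction, unless a number is given. In all, 964 genes (7.93% of those tested) were higher in WT cDC2 and 584 (4.8%) were lower. Of these 1548 genes, 820 were at least 2-fold higher and 486 at least 2-fold lower, and 86 and 58 passed 8-fold. In 1489 of them the 3 arrays of one cell type all lay on one side of the other 3, and over all genes tested 11.8% had every WT cDC2 array above the WT pDC arrays and 8.32% had every one below. The median difference of all genes was 0.017. In 421 of the called genes the lower cell type read below the median of its arrays, between 4.91 and 5.31 on the log2 scale, where intensity is mostly background and the size of a difference is uncertain.

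Where the call of a named gene ended without 1 array, without array 1 of every WT cell type (all WT arrays 1) or with the replicate block (a term for the array number, in a fit of the 6 arrays), or where a named gene passed only in such a fit, the adjusted p it then had is given where its difference is first printed. For lists, counts of 3 or more genes that such a fit moved by over 1.5 times follow the count. The counts depended on the setting: 595 rose and 342 fell in a fit of these 6 arrays alone without the replicate block, and 554 and 336 without array 1 of every WT cell type. Without WT pDC array 2 the split was 736 against 713 genes, and without WT pDC array 3 it was 1100 against 435.

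**Figure D1:**
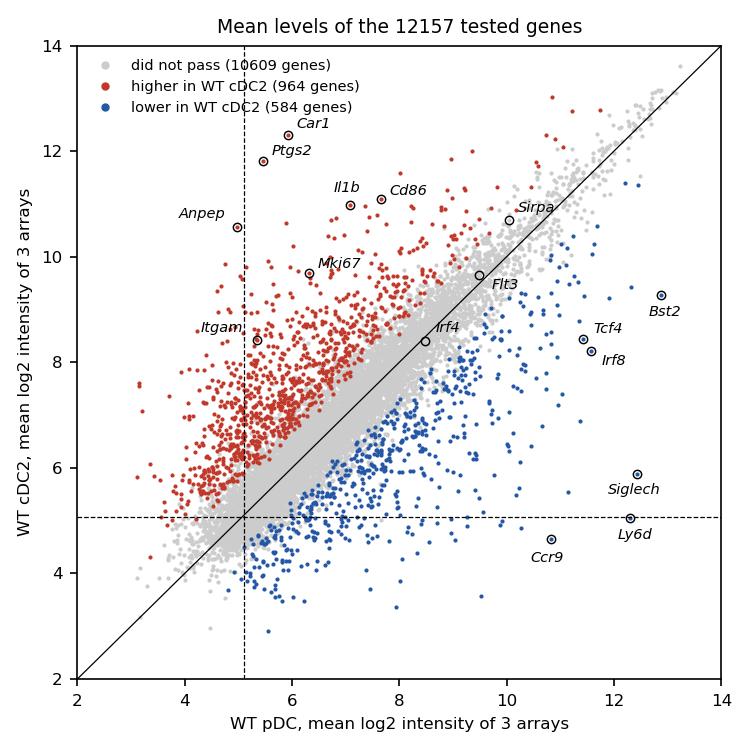
Mean log2 intensity of 3 WT pDC arrays (horizontal axis) against that of 3 WT cDC2 arrays (vertical axis) for 12157 genes; the solid line marks equal levels and the dashed lines the mean array medians. The 964 genes higher in WT cDC2 lie above the line and the 584 lower ones below it, and the ringed genes include Siglech, Ly6d and Ccr9 at the lower right and Car1, Ptgs2 and Anpep at the upper left.

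Arrays of one cell type resembled each other more than they resembled the other cell type. Pearson correlations across the 12157 genes, which are not independent replicates, were 0.934 to 0.950 among WT cDC2 arrays, 0.883 to 0.920 among WT pDC arrays and 0.779 to 0.865 between them. The median SD of a gene was 0.33 in WT cDC2 and 0.44 in WT pDC. Arrays with the same number shared part of their deviations, and their median intensities lay close together, at 30.0 to 30.1 for WT arrays 1, 31.7 to 34.3 for WT arrays 2 and 38.9 to 39.8 for WT arrays 3. In all, 1544 of the 1548 called genes had the same direction within every number. They were called on these same arrays, and in 1489 the groups did not overlap, so this agreement is largely built in. Xist, the RNA of the inactive X chromosome, read 11.28 and 11.89 in WT cDC2 array 1 and WT pDC array 1 and at most 5.05 in the other 4 arrays, so that each group held 1 array with high Xist. In sorted bulk RNA, fewer cells of a type and less RNA per cell cannot be told apart.

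The labels were set beside marker genes. The marker lists were chosen with earlier results of these data known, so their counts are not an independent check. Of 28 tested genes of the pDC identity list, 25 fell and none rose, with a median difference of -3.52. The mean level of the list was 6.15 to 6.54 in the WT cDC2 arrays and 9.30 to 10.28 in the WT pDC arrays. Siglech, a surface receptor of the Siglec family that marks mouse pDC, read 5.11, 6.50 and 6.07 in WT cDC2 and 12.52, 12.24 and 12.51 in WT pDC. The groups did not overlap, and Siglech was 92.4-fold lower in WT cDC2 by limma (-6.53 ± 0.27, adjusted p = 2.52e-13). Bst2 (tetherin), the antigen of the pDC antibody PDCA-1, read 8.51, 9.21 and 10.09 in WT cDC2 and 12.81, 12.35 and 13.48 in WT pDC. It was high in every WT pDC array and lower by 12.2-fold in WT cDC2 (-3.61 ± 0.45, adjusted p = 3.58e-06). Irf7, Plac8 (-0.96 ± 0.33, adjusted p = 0.0588, but 0.0172 with the replicate block) and Bcl11a (-0.78 ± 0.38, adjusted p = 0.229, but 0.0329 with the replicate block) were the 3 members that did not pass, so that with the replicate block 27 of the 28 fell.

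The cDC2 identity list was split: of 22 tested genes 10 rose and 3 fell, with a median of 1.0 (1 fell without all WT arrays 1). Itgam, which encodes the CD11b chain that marks cDC2, read 8.70, 8.31 and 8.23 in WT cDC2 and 5.65, 4.96 and 5.40 in WT pDC. No WT pDC array reached the lowest WT cDC2 array, and Itgam rose 8.42-fold (3.07 ± 0.30, adjusted p = 1.03e-07). Itgax, the CD11c chain, read 11.67, 10.81 and 11.41 in WT cDC2 and 10.06, 7.99 and 9.56 in WT pDC, and it was higher in WT cDC2 without overlap (2.09 ± 0.44, adjusted p = 0.0016). Sirpa (CD172a), the inhibitory receptor used to separate cDC2 from cDC1, read 11.17, 10.06 and 10.83 in WT cDC2 and 10.85, 9.43 and 9.87 in WT pDC. Its groups overlapped (0.64 ± 0.43, adjusted p = 0.456), while WT cDC1 had a mean of 6.26. Cd209a, the DC-SIGN homologue often used for cDC2, had means of 10.49 ± 0.51 (SD, n = 3) in WT cDC2 and 10.84 ± 0.33 (SD, n = 3) in WT pDC and did not pass (-0.35 ± 0.28, adjusted p = 0.561). The 3 members that fell were the macrophage galactose lectin Clec10a (-2.81 ± 0.49), Cd4 (-1.51 ± 0.43, adjusted p = 0.0199, but 0.053 to 0.155 without cDC2 array 2, pDC array 1, pDC array 3 or all WT arrays 1) and the repressor Zeb2 (-1.03 ± 0.23, adjusted p = 0.00336, but 0.131 without all WT arrays 1).

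The list of genes of the other conventional subset, cDC1, had a mean level of 6.04 to 6.47 in WT cDC2 and 6.14 to 6.54 in WT pDC, and Xcr1, the chemokine receptor of cDC1, had means of 4.52 ± 0.23 (SD, n = 3) in WT cDC2 and 4.25 ± 0.52 (SD, n = 3) in WT pDC against 9.70 in WT cDC1. Of its 15 tested genes 4 rose and 5 fell. Batf3 (2.77 ± 0.47), Wdfy4 (2.12 ± 0.28), Naaa (1.85 ± 0.29) and Tlr3 (1.10 ± 0.30, adjusted p = 0.0148, but 0.096 to 0.154 without cDC2 array 2, pDC array 1 or all WT arrays 1) were higher in WT cDC2. Clec9a, the receptor for actin of dead cells, read 6.51, 7.47 and 6.59 in WT cDC2 and 9.77, 9.81 and 9.63 in WT pDC. It was thus lower in WT cDC2 than in pDC (-2.88 ± 0.31, adjusted p = 3.94e-07), and both lay under the WT cDC1 mean of 10.97. Cd8a (-1.92 ± 0.27), Tlr12 (-1.56 ± 0.29), Rab7b (-1.17 ± 0.25) and the scavenger receptor Cd36 (-0.94 ± 0.30, adjusted p = 0.0398, but 0.106 to 0.409 without cDC2 array 1, cDC2 array 2, pDC array 1, pDC array 3 or all WT arrays 1) also fell.

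Of 27 tested genes shared by conventional dendritic cells, 14 rose and 1, the kynurenine enzyme Kmo (-1.45 ± 0.37, adjusted p = 0.0091, but 0.0569 to 0.1 without cDC2 array 3, pDC array 1 or all WT arrays 1), fell. Anpep, the aminopeptidase CD13, led the list (5.60 ± 0.34, adjusted p = 6.44e-11), followed by the adhesion molecule Nectin1 (4.51 ± 0.33), Slamf8 (3.62 ± 0.45) and the growth factor receptor Kit (3.09 ± 0.29, adjusted p = 4.1e-08). Flt3, the receptor for the cytokine that supports both lineages, read 9.63, 9.67 and 9.68 in WT cDC2 and 9.67, 9.21 and 9.59 in WT pDC. Its levels overlapped and the difference was 0.17 ± 0.27, adjusted p = 0.835. Zbtb46, the transcription factor that reports on committed conventional dendritic cells, read 5.82, 5.35 and 6.24 in WT cDC2 and 4.98, 5.60 and 5.26 in WT pDC, close to the array medians in both groups, and did not pass (0.52 ± 0.24, adjusted p = 0.2).

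Markers of other spleen cells were measured the same way. Of 11 tested B cell markers 7 fell and 1 rose (4 fell without WT cDC2 array 1, WT pDC array 3 or all WT arrays 1), and the list's mean level was 5.16 to 5.56 in the WT cDC2 arrays and 6.27 to 6.90 in the WT pDC arrays. Of the 11, 6 lay below the array median in WT cDC2. Fcrla (-4.20 ± 0.56, adjusted p = 7.54e-06) and Fcmr (-2.37 ± 0.30) fell most, and Pax5, which fixes B cell identity, read 4.85, 4.77 and 5.12 in WT cDC2 and 6.68, 5.91 and 6.43 in WT pDC (-1.43 ± 0.36, adjusted p = 0.00743, but 0.117 without all WT arrays 1). Ms4a1 (CD20) read 5.76, 5.30 and 6.40 in WT cDC2 and 5.49, 7.62 and 6.80 in WT pDC, and its groups overlapped. Of 9 plasma cell markers Mzb1, Xbp1 and Eaf2 fell, and Jchain read 4.32, 6.68 and 4.01 in WT cDC2 and 7.42, 9.82 and 5.71 in WT pDC, highest in array 2 of each cell type (-2.65 ± 1.17, adjusted p = 0.171, but 0.00272 with the replicate block). The list means were 5.90 to 6.17 in WT cDC2 and 7.0 to 7.15 in WT pDC. T cell markers had means of 5.72 to 6.27 and 5.87 to 6.73, and of 9 tested Cd28 fell and none rose (1 at an unadjusted p below 0.05). NK cell markers had means of 5.18 to 6.05 and 5.11 to 6.75, the latter highest in WT pDC array 2, where Gzma read 8.82. Of 8 tested NK cell markers Tbx21 (1.54 ± 0.24) and Il2rb (1.21 ± 0.34, adjusted p = 0.017, but 0.0689 to 0.0921 without cDC2 array 1, cDC2 array 3, pDC array 3 or all WT arrays 1) rose and none fell. Monocyte and neutrophil markers had means of 5.37 to 7.73 and 5.48 to 6.92, and of 9 tested Csf3r (1.57 ± 0.28) and Lyz2 (1.27 ± 0.41, adjusted p = 0.0453, but 0.0556 to 0.218 without cDC2 array 2, cDC2 array 3, pDC array 1, pDC array 3 or all WT arrays 1) rose and Ccr2 fell. In that list the neutrophil granule gene Ngp read 3.72, 3.97 and 9.64 in WT cDC2 and 7.71, 7.69 and 4.22 in WT pDC, so that it was high in WT cDC2 array 3 and in WT pDC arrays 1 and 2. Red pulp macrophage markers had means of 5.29 to 5.87 and 5.12 to 5.53, and 2 of 11 rose: Adgre1 (F4/80) (3.24 ± 0.32) and Spic (1.56 ± 0.40, adjusted p = 0.00861, but 0.0779 to 0.0873 without cDC2 array 3 or all WT arrays 1 or with the replicate block). The complement gene C1qa read at most 5.47 in the 6 arrays, and the macrophage secreted protein Cd5l, below the expression filter, at most 3.68. The part of such cells in the results was not tested.

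Erythroid genes differed between the groups in part. Of 8 tested erythroid and platelet markers 4 rose (2 rose without WT cDC2 array 3, WT pDC array 1 or all WT arrays 1), with list means of 6.50 to 7.61 in WT cDC2 and 4.90 to 5.38 in WT pDC. Carbonic anhydrase 1 (Car1) read 12.58, 11.43 and 12.92 in WT cDC2 and 6.01, 6.89 and 4.86 in WT pDC. It gave the largest rise of the whole comparison (6.39 ± 0.87, adjusted p = 1.11e-05), and WT cDC1 had a mean of 6.21. Car2 (3.77 ± 0.39), the erythroid factor Klf1 (2.23 ± 0.60, adjusted p = 0.0131, but 0.0687 to 0.185 without cDC2 array 3, pDC array 1 or all WT arrays 1) and Epor (1.30 ± 0.39, adjusted p = 0.0262, but 0.088 to 0.531 without cDC2 array 1, cDC2 array 3, pDC array 1 or all WT arrays 1 or with the replicate block (difference down to 0.63)) rose with it. Alas2, the first enzyme of erythroid haem synthesis, read 5.31, 4.65 and 5.89 in WT cDC2 and 4.23, 4.58 and 5.22 in WT pDC and did not pass (0.61 ± 0.59, adjusted p = 0.667). The red cell anion exchanger Slc4a1 read 8.96, 6.58 and 7.63 in WT cDC2 and 5.58, 6.32 and 6.26 in WT pDC, highest in WT cDC2 array 1, and did not pass either (1.67 ± 0.71, adjusted p = 0.153). The platelet genes Pf4 and Ppbp lay below the filter, with no WT cDC2 array above 4.63.

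The largest fall was at Ly6d. Ly6d encodes a GPI-anchored protein of early lymphoid cells and read 4.45, 5.06 and 5.63 in WT cDC2 and 11.92, 12.12 and 12.84 in WT pDC. The WT cDC2 arrays lay around the array median, over 6 units below every WT pDC array (-7.24 ± 0.42, adjusted p = 3.17e-11). Ccr9, the gut-homing chemokine receptor, read 4.23, 5.04 and 4.69 in WT cDC2 and 11.37, 10.32 and 10.81 in WT pDC (-6.18 ± 0.40, adjusted p = 1.55e-10), and WT cDC1 lay between the other cell types at 7.07. Blnk, the adaptor of the B cell receptor pathway, read 4.51, 4.89 and 5.16 in WT cDC2 and 10.73, 9.69 and 10.40 in WT pDC (-5.42 ± 0.27, adjusted p = 3.63e-12). These 3 genes did not overlap between the groups. Also among the 15 largest falls were the membrane protein Mctp2 (-5.94 ± 0.50), the lectin Cd209d (-5.59 ± 0.40, adjusted p = 6.96e-10), protein kinase C alpha (Prkca, -4.96 ± 0.42) and the sialic acid hydroxylase Cmah (-4.92 ± 0.31). The adaptor Sla2 (-4.68 ± 0.43), the sodium pump subunit Atp1b1 (-4.62 ± 0.37) and the template-independent DNA polymerase Dntt (-4.58 ± 0.30, adjusted p = 2.31e-10) followed. The group was completed by Cd300c (-4.48 ± 0.33, adjusted p = 9.47e-10), the nucleotide receptor P2ry13 (-4.40 ± 0.29), Klra17 (-4.38 ± 0.37, adjusted p = 7.71e-09) and the magnesium transporter Slc41a2 (-4.36 ± 0.45).

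Some of the largest rises also separated WT cDC2 from WT cDC1, and others did not. Ptgs2 (COX-2), the inducible enzyme of prostaglandin synthesis, read 11.42, 12.04 and 11.97 in WT cDC2 and 4.97, 6.06 and 5.35 in WT pDC. Every WT cDC2 array was above 11 and no WT pDC array above 6.06, an 81.4-fold rise (6.35 ± 0.36, adjusted p = 3.04e-11), and WT cDC2 also exceeded WT cDC1 (4.68 ± 0.36, adjusted p = 4.1e-09). Against WT cDC1, 3.04% of tested genes were higher in WT cDC2 and 3.02% lower. Besides Ptgs2 and Car1, the elastase Mmp12 (4.61 ± 0.36), transglutaminase 2 (Tgm2, 4.36 ± 0.25), the adhesion molecule Dscam (4.37 ± 0.27) and the lectins Clec4a4 (DCIR2, 4.41 ± 0.31, adjusted p = 5.92e-10) and Clec4b1 (4.45 ± 0.51, adjusted p = 8.85e-07) rose likewise. Their WT cDC2 minus WT cDC1 differences were 3.95, 3.87, 4.50, 4.42 and 3.51, each with an adjusted p below 0.05.

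By contrast, Anpep read 10.94, 10.03 and 10.73 in WT cDC2 and 5.02, 5.27 and 4.63 in WT pDC, and WT cDC1 had a mean of 11.41. Adam23, a membrane protein without protease activity, read 10.08, 9.52 and 9.98 in WT cDC2 and 4.51, 4.64 and 5.14 in WT pDC against 9.38 in WT cDC1. The microtubule-binding protein Nav1 (4.77 ± 0.33), the reticulon Rtn1 (4.76 ± 0.22), the chemokine Cxcl16 (4.66 ± 0.29, adjusted p = 8.95e-11) and the killer cell lectin Klri1 (4.32 ± 0.32) rose without overlap, with WT cDC1 means of 8.76, 8.56, 10.35 and 8.25. For Anpep, Adam23, Nav1, Cxcl16, Klri1 and Nectin1 the differences between WT cDC2 and WT cDC1 ran from -0.84 to 0.70 and did not pass, whereas Rtn1 differed (0.79 ± 0.22, adjusted p = 0.0312). The beta-glucan receptor Clec7a (dectin-1) read 10.65, 10.95 and 10.33 in WT cDC2 and 5.73, 7.20 and 4.73 in WT pDC, with WT cDC1 in between at 8.18 (2.46 ± 0.42, adjusted p = 0.000318).

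**Figure D2:**
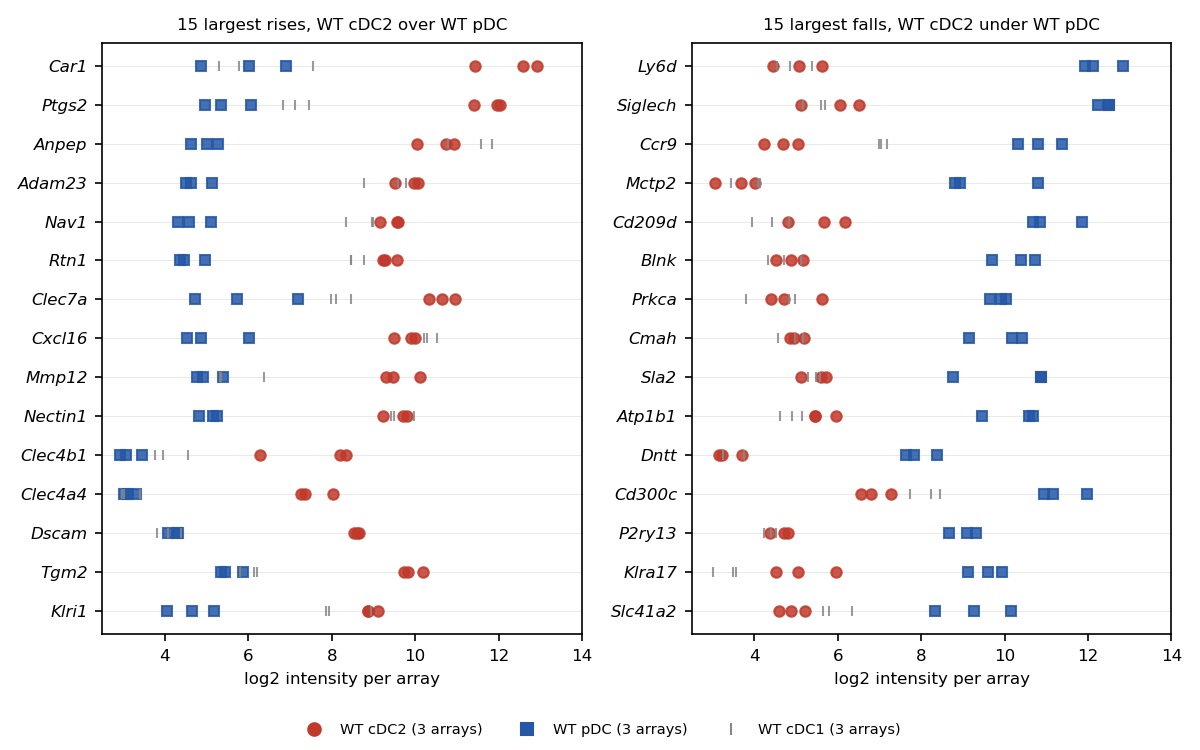
Log2 intensity in each array (horizontal axis) of the 15 genes with the largest rise (left) and the 15 with the largest fall (right) in WT cDC2 against WT pDC; circles are WT cDC2, squares WT pDC and grey strokes WT cDC1, 3 arrays each. In no row do circles and squares overlap, and the strokes sit with the circles for Anpep, Cxcl16 and Nectin1 and with the squares for Dscam and Clec4a4.

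Promoters of the genes that moved most were searched for short motifs, as a description of sequence and not of binding. RefSeq windows of 300 bases (250 before and 50 after the start, build GRCm38.p6, 1 window per gene) were found for 78 of the 100 genes with the largest rise and for 78 of the 100 with the largest fall. CACCTG, an E-box of the kind E proteins recognise, was present on either strand in 28.2% of the windows of the largest falls, in 15.4% of those of the largest rises, in 18.1% of all tested genes and in 20.0% of all windows of the table. CAGCTG, another E-box, was present in 19.2%, 17.9%, 15.3% and 16.1% respectively. The core of the interferon-stimulated response element, GAAA and GAAA with any 2 bases between them, was present in 12.8% of the largest rises, in 5.13% of the largest falls, in 3.03% of all tested genes and in 3.49% of all windows. The composite of ETS factors with IRF4 or IRF8, GGAA and GAAA with any 2 bases between them, was present in 5.13%, 2.56%, 2.54% and 2.79%, and a match can overlap one of the previous motif.

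Stretches of 120 bases from 3 of the largest falls and 4 of the 100 largest rises show what such a match looks like. They are printed 5′ to 3′ on the gene's strand with the match in capitals, as CACCTG or its reverse complement in the first 3 and as the interferon-response core or its reverse complement in the other 4. The match began 20 bases before the start of Siglech, 85 before Ccr9, 160 before Blnk, 75 before Clec4b1, 138 before Nav1, 46 before Ifitm2 and 15 before Slamf8.
Siglech, chr7:55768094-55768213, plus strand: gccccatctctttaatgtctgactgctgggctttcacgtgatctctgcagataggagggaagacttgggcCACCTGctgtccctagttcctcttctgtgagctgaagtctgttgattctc
Ccr9, chr9:123767069-123767188, plus strand: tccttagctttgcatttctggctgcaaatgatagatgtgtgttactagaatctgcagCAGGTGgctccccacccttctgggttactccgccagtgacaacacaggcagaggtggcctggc
Blnk, chr19:40994319-40994438, minus strand: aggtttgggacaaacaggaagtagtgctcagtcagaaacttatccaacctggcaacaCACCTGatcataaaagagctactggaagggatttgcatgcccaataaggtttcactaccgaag
Clec4b1, chr6:123049832-123049951, plus strand: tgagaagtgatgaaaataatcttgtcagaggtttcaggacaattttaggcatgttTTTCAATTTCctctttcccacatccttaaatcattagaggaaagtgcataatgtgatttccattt
Nav1, chr1:135585429-135585548, minus strand: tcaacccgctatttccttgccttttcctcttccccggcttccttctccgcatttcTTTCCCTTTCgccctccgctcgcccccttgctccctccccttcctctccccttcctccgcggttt
Ifitm2, chr7:140955943-140956062, minus strand: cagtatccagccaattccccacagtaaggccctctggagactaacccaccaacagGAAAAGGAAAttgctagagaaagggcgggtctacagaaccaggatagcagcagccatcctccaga
Slamf8, chr1:172590539-172590658, minus strand: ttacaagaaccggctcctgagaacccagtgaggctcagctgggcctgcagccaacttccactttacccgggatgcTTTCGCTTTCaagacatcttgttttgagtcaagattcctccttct

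Among transcription factors, 2 E protein genes fell and 1 Id protein gene rose, of 11 tested genes of this list. Tcf4 read 8.20, 8.68 and 8.46 in WT cDC2 and 11.83, 11.08 and 11.35 in WT pDC. No array of one group entered the range of the other, and Tcf4 was 7.86-fold lower in WT cDC2 (-2.97 ± 0.29, adjusted p = 1.1e-07). Tcf12 (HEB), another E protein, was also lower (-1.73 ± 0.27). Id2 read 7.99, 9.05 and 9.05 in WT cDC2 and 4.85, 7.09 and 7.07 in WT pDC, lowest in WT pDC array 1. It rose 5.12-fold (2.36 ± 0.60, adjusted p = 0.00903, but 0.0646 to 0.0868 without pDC array 1 or all WT arrays 1). Id3 read 4.57, 6.31 and 6.04 in WT cDC2 and 5.78, 5.53 and 8.65 in WT pDC, with WT pDC array 3 far above the rest, and did not pass (-1.01 ± 0.73, adjusted p = 0.497). The other 7 genes did not pass, among them the corepressor Cbfa2t3 (0.74 ± 0.42, adjusted p = 0.343).

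Of 10 tested genes of the IRF list, which also holds the IRF2 partner gene Irf2bp2, 2 fell and none rose. Irf8, which pDC and cDC1 need, read 7.76, 8.28 and 8.63 in WT cDC2 and 12.10, 10.64 and 12.00 in WT pDC. It was 10.2-fold lower in WT cDC2 (-3.36 ± 0.42, adjusted p = 3.28e-06) and lower than in WT cDC1 too (-3.24 ± 0.42, adjusted p = 1.02e-05). Irf4, known for its role in cDC2, read 9.14, 8.03 and 8.06 in WT cDC2 and 8.97, 7.72 and 8.75 in WT pDC. The groups overlapped (-0.07 ± 0.44, adjusted p = 0.965), whereas WT cDC2 exceeded WT cDC1 (3.01 ± 0.44, adjusted p = 4.85e-05). Irf7, the factor that amplifies type I interferon, read 8.52, 8.15 and 8.28 in WT cDC2 and 10.60, 7.56 and 10.37 in WT pDC: WT pDC arrays 1 and 3 were above every WT cDC2 array and array 2 below them (-1.20 ± 0.51, adjusted p = 0.146, but 6.37e-05 without pDC array 2). Irf2bp2, which encodes a partner of IRF2, was the other gene that fell (-1.08 ± 0.28, adjusted p = 0.0111, but 0.0848 to 0.155 without pDC array 3 or all WT arrays 1).

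Of 15 tested ETS factors 6 rose and 2 fell. Spib, which acts with TCF4 in pDC, read 6.15, 5.79 and 6.99 in WT cDC2 and 10.42, 8.92 and 10.82 in WT pDC and was lower in every WT cDC2 array (-3.74 ± 0.45, adjusted p = 2.04e-06). Ets1, a lymphoid factor, fell as well (-2.18 ± 0.25). Spi1 (PU.1), the myeloid factor, read 9.90, 9.69 and 10.58 in WT cDC2 and 7.42, 6.51 and 8.71 in WT pDC (2.51 ± 0.50, adjusted p = 0.00102), and Etv3 read 10.52, 9.48 and 10.01 in WT cDC2 and 7.09, 6.14 and 6.93 in WT pDC (3.29 ± 0.41, adjusted p = 3e-06). Both were higher in each WT cDC2 array than in any WT pDC array. Elk3 (1.10 ± 0.26) and Ehf (2.40 ± 0.58, adjusted p = 0.006, but 0.0557 to 0.109 without cDC2 array 3 or all WT arrays 1) rose too. Etv6 (1.01 ± 0.33, adjusted p = 0.0496, but 0.0715 to 0.363 without cDC2 array 1, cDC2 array 2, cDC2 array 3, pDC array 2 or all WT arrays 1 or with the replicate block (difference down to 0.52)) and Spic completed the 6, and 3 rose without WT cDC2 array 3 or all WT arrays 1.

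Of 37 other transcription factors of dendritic cells 11 rose and 6 fell, and 2 fell without all WT arrays 1 and 3 fell without WT cDC2 array 1. Besides Batf3, the orphan nuclear receptors Nr4a2 (2.74 ± 0.41, adjusted p = 3.83e-05) and Nr4a3 (2.08 ± 0.45), the MHC class II transactivator Ciita (2.11 ± 0.46, adjusted p = 0.00234) and Nfil3 (2.02 ± 0.47) rose. Bcl6, the repressor named in the label of the other genotype of the series, read 7.83, 7.06 and 7.02 in WT cDC2 and 6.33, 5.40 and 5.88 in WT pDC. Its ranges did not meet, and it rose 2.71-fold (1.44 ± 0.37, adjusted p = 0.00969, but 0.0602 to 0.0761 without cDC2 array 1 or pDC array 2). Of 16 KLF, RUNX and IKAROS factors Runx3 rose (0.93 ± 0.24, adjusted p = 0.00886, but 0.0731 without pDC array 2) and Ikzf2 fell (-0.69 ± 0.18, adjusted p = 0.011, but 0.0509 to 0.215 without cDC2 array 1, pDC array 1 or all WT arrays 1 or with the replicate block). Klf4 read 9.32, 8.31 and 9.34 in WT cDC2 and 8.21, 6.96 and 9.39 in WT pDC and did not pass (0.80 ± 0.54, adjusted p = 0.457).

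**Figure D3:**
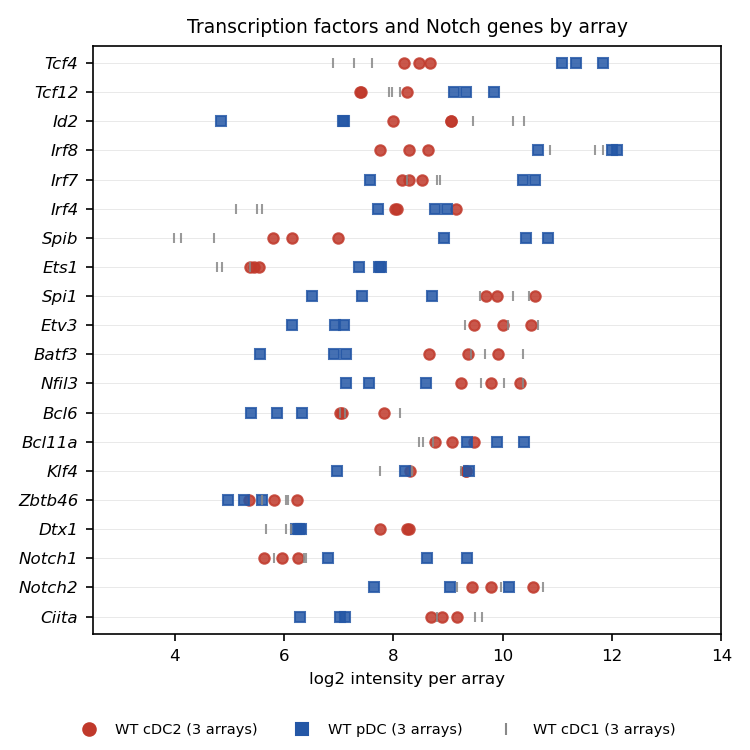
Log2 intensity in each array (horizontal axis) of 20 genes of transcription factors, their inhibitor Id2 and Notch genes (rows), in WT cDC2 (circles), WT pDC (squares) and WT cDC1 (grey strokes), 3 arrays each. Tcf4, Irf8 and Spib have every square to the right of every circle, Id2, Spi1, Etv3 and Batf3 the reverse, and Irf4 and Klf4 overlap.

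Notch2 signalling in the spleen supports one branch of cDC2, so its pathway was listed. Of 30 tested genes 5 rose and 4 fell, with a median of -0.076, and 3 rose without WT pDC array 2, WT pDC array 3 or all WT arrays 1, 1 fell without all WT arrays 1 and 2 fell without WT pDC array 1. The Notch target and regulator Dtx1 read 8.28, 7.76 and 8.24 in WT cDC2 and 6.31, 6.27 and 6.21 in WT pDC. It rose without overlap (1.83 ± 0.19, adjusted p = 2.26e-07) and was also above WT cDC1 (2.15 ± 0.19, adjusted p = 3.94e-08). The fringe enzyme Lfng (1.40 ± 0.34, adjusted p = 0.00613, but 0.11 without all WT arrays 1), the ligand Jag1 (1.53 ± 0.33), the ubiquitin ligase Itch (1.63 ± 0.44, adjusted p = 0.0132, but 0.0535 to 0.0921 without cDC2 array 1, pDC array 2 or pDC array 3) and the DNA-binding partner Rbpj (1.01 ± 0.30, adjusted p = 0.025, but 0.0752 to 0.165 without cDC2 array 1, pDC array 2, pDC array 3 or all WT arrays 1) rose. The ligand Dll4 read 4.77, 5.12 and 5.81 in WT cDC2 and 8.44, 6.93 and 8.52 in WT pDC and fell (-2.73 ± 0.45, adjusted p = 0.000123). The receptor Notch1 read 5.95, 5.62 and 6.25 in WT cDC2 and 9.34, 6.81 and 8.61 in WT pDC and fell (-2.31 ± 0.53, adjusted p = 0.00347, but 0.101 without all WT arrays 1), with Notch3 (-0.87 ± 0.22, adjusted p = 0.00793, but 0.0535 to 0.193 without pDC array 1 or all WT arrays 1) and Maml2 (-1.18 ± 0.37, adjusted p = 0.033, but 0.0759 to 0.338 without cDC2 array 1, cDC2 array 2, pDC array 1, pDC array 3 or all WT arrays 1). Notch2 itself read 10.56, 9.43 and 9.79 in WT cDC2 and 10.12, 7.65 and 9.04 in WT pDC, lowest in WT pDC array 2, and did not pass (0.99 ± 0.60, adjusted p = 0.382).

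The lymphotoxin receptor and NF-kappaB list had 4 rises and no fall among 20 tested genes. They were the adaptor Traf1 (2.89 ± 0.40), the kinase Map3k14 (NIK, 2.03 ± 0.30), the subunit Rel (1.33 ± 0.21) and the ligand Ltb (2.12 ± 0.51, adjusted p = 0.00547, but 0.0603 without all WT arrays 1). Of the 20, 7 rose with the replicate block and 8 rose without WT pDC array 3. Relb read 8.62, 7.62 and 9.46 in WT cDC2 and 6.92, 5.42 and 7.90 in WT pDC and did not pass (1.82 ± 0.73, adjusted p = 0.12, but 0.00223 to 0.0474 without pDC array 3 or with the replicate block).

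Antigen presentation by MHC class II separated the cell types in part. Of 15 tested genes 6 rose and 1 fell. Ciita read 9.16, 8.69 and 8.88 in WT cDC2 and 7.02, 6.29 and 7.11 in WT pDC and was 4.31-fold higher. H2-Ob, a subunit of the peptide exchange modulator HLA-DO, read 10.43, 10.60 and 10.95 in WT cDC2 and 7.83, 7.89 and 8.93 in WT pDC (2.44 ± 0.31, adjusted p = 4.48e-06), and H2-Eb2 read 8.97, 8.74 and 8.70 in WT cDC2 and 5.89, 5.37 and 6.45 in WT pDC (2.90 ± 0.29, adjusted p = 1.1e-07). Neither overlapped. The tetraspanin Cd9 (3.55 ± 0.41), the class II chain H2-Eb1 (1.04 ± 0.29, adjusted p = 0.0171, but 0.0792 to 0.135 without cDC2 array 3, pDC array 2 or all WT arrays 1) and the endosomal protease Lgmn (1.11 ± 0.30, adjusted p = 0.0146, but 0.0543 to 0.0832 without cDC2 array 1, cDC2 array 3 or pDC array 3) were the other rises. Cd74, the invariant chain, read 12.57, 12.70 and 13.03 in WT cDC2 and 12.30, 11.87 and 12.58 in WT pDC: it was high in all 6 arrays (0.52 ± 0.24, adjusted p = 0.187). Cathepsin L (Ctsl), a protease that trims the invariant chain, read 6.13, 6.63 and 7.24 in WT cDC2 and 9.97, 9.92 and 10.48 in WT pDC and was 11-fold lower in WT cDC2 (-3.46 ± 0.33, adjusted p = 6.74e-08). Of 18 tested genes of MHC class I loading limma called none (1 lower at an unadjusted p below 0.05), also with the replicate block, with the largest differences at Pdia3 (-0.52 ± 0.26, adjusted p = 0.241), H2-M3 (-0.46 ± 0.22, adjusted p = 0.211) and Erap1 (0.39 ± 0.29, adjusted p = 0.512).

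Many molecules that steer T cell activation were higher in WT cDC2. Of 24 tested costimulatory and coinhibitory genes 11 rose and 4 fell (2 fell without all WT arrays 1). Cd80 read 10.22, 10.64 and 9.72 in WT cDC2 and 5.87, 6.03 and 6.15 in WT pDC, and Cd86 read 11.27, 11.10 and 10.90 in WT cDC2 and 7.35, 8.16 and 7.46 in WT pDC. Both B7 ligands stood apart in every array, with 18.1-fold (4.18 ± 0.32, adjusted p = 2.25e-09) and 10.8-fold (3.43 ± 0.27, adjusted p = 3.25e-09) rises. The inhibitory receptor Havcr2 (TIM-3, 3.54 ± 0.29), the maturation marker Cd83 (2.22 ± 0.43), Slamf7 (2.16 ± 0.22) and the PD-1 ligands Cd274 (1.78 ± 0.33) and Pdcd1lg2 (1.81 ± 0.31) rose as well. The falls were Slamf9 (-3.0 ± 0.42), Slamf6 (-1.90 ± 0.44, adjusted p = 0.00407, but 0.0724 without all WT arrays 1), Cd200 (-1.66 ± 0.32) and Lag3 (-1.40 ± 0.32, adjusted p = 0.00351, but 0.102 without all WT arrays 1).

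Endosomal Toll-like receptors and their adaptors changed in both directions, 3 up and 3 down of 23 tested, and 5 fell without WT pDC array 2 or with the replicate block. Tlr7, a receptor for single-stranded RNA, read 8.51, 8.82 and 8.45 in WT cDC2 and 9.96, 9.64 and 10.53 in WT pDC. It was present in both cell types, lower in WT cDC2 without overlap (-1.45 ± 0.36, adjusted p = 0.00711, but 0.0705 without all WT arrays 1), and at 3.42 in WT cDC1. Tlr9, the receptor for CpG DNA, read 8.86, 8.50 and 9.03 in WT cDC2 and 10.44, 8.83 and 10.14 in WT pDC. Arrays 1 and 3 of WT pDC exceeded all WT cDC2 arrays and array 2 overlapped (-1.01 ± 0.45, adjusted p = 0.179, but 0.0347 to 0.0486 without pDC array 2 or with the replicate block). Tlr13, a sensor of bacterial ribosomal RNA, read 7.96, 8.13 and 6.52 in WT cDC2 and 4.89, 4.86 and 3.64 in WT pDC and rose (3.07 ± 0.44, adjusted p = 1.77e-05). Hsp90b1, the chaperone of Toll-like receptors, fell (-1.26 ± 0.28).

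Several genes of surface Toll-like receptors and their partners and of cytosolic sensing were higher in WT cDC2. Of 9 tested surface Toll-like receptor genes 4 rose and none fell (1 at an unadjusted p below 0.05). Tlr1 read 8.66, 9.48 and 9.57 in WT cDC2 and 5.23, 6.46 and 6.32 in WT pDC (3.23 ± 0.30, adjusted p = 5.26e-08), and its partner Tlr2 read 7.48, 7.98 and 7.76 in WT cDC2 and 5.87, 5.61 and 5.98 in WT pDC (1.92 ± 0.24, adjusted p = 4.37e-06). Ticam2 (1.03 ± 0.24) and Tlr6 (0.89 ± 0.29, adjusted p = 0.0441, but 0.062 to 0.278 without cDC2 array 2, cDC2 array 3, pDC array 1, pDC array 2 or all WT arrays 1 or with the replicate block (difference down to 0.57)) completed the 4. Of 27 tested genes of cytosolic sensing 9 rose and none fell (5 rose without all WT arrays 1). Nlrp3, the inflammasome sensor, read 9.27, 9.24 and 8.67 in WT cDC2 and 5.77, 4.69 and 4.82 in WT pDC and rose 15.6-fold (3.96 ± 0.32, adjusted p = 4.68e-09). Nod1 (2.47 ± 0.37), the RNA sensors Ddx58 (RIG-I, 2.19 ± 0.37) and Ifih1 (MDA5, 1.32 ± 0.27, adjusted p = 0.00141, but 0.0596 without all WT arrays 1) and Nlrp1b (1.72 ± 0.32) rose as well.

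Interferon receptors differed by type. Ifnar2 read 9.39, 9.59 and 9.93 in WT cDC2 and 11.24, 11.01 and 11.54 in WT pDC, and it was lower in WT cDC2 (-1.63 ± 0.27, adjusted p = 0.000148), as was the other chain of the type I receptor, Ifnar1 (-1.21 ± 0.30, adjusted p = 0.00769, but 0.0744 to 0.11 without pDC array 1 or all WT arrays 1). Ifngr1, the ligand-binding chain of the interferon gamma receptor, read 10.14, 9.76 and 9.69 in WT cDC2 and 7.94, 7.45 and 7.60 in WT pDC and was higher (2.20 ± 0.29, adjusted p = 6.17e-06), with the kinase Jak2 (1.53 ± 0.27). The other 9 of 13 tested genes did not pass. Of 31 tested interferon-stimulated genes 8 rose and 3 fell, with a median of 0.50 (5 fell with the replicate block). The membrane proteins Ifitm2, Ifitm1 and Ifitm3, which block viral entry, were among the rises. Ifitm2 read 10.07, 11.15 and 10.86 in WT cDC2 and 6.43, 6.51 and 7.22 in WT pDC (3.97 ± 0.39, adjusted p = 9.77e-08), Ifitm1 rose by 3.73 ± 0.50 and Ifitm3 by 2.64 ± 0.45. Rtp4 read 9.39, 9.09 and 8.96 in WT cDC2 and 4.95, 5.54 and 6.05 in WT pDC, 12.4-fold higher (3.63 ± 0.43, adjusted p = 1.34e-06), against 5.48 in WT cDC1. The nuclease Isg20 (2.17 ± 0.30) and the oligoadenylate synthetases Oas2 (2.07 ± 0.28) and Oas1a (1.81 ± 0.40) rose too. Besides Bst2, Trim30a (-1.36 ± 0.29) and Ly6e (-1.11 ± 0.31, adjusted p = 0.0157, but 0.0598 to 0.119 without cDC2 array 2, pDC array 1, pDC array 3 or all WT arrays 1) fell.

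Part of the secretory machinery was lower in WT cDC2. pDC are rich in endoplasmic reticulum, and 55 of the 60 tested genes of the secretory pathway and the unfolded protein response had a difference below 0. Of the 60, 12 fell and none rose, with a median of -0.45 and list means of 8.09 to 8.49 in WT cDC2 and 8.49 to 9.18 in WT pDC. Quantile normalization gave 20 falls, and 6 fell without WT cDC2 array 1 or WT pDC array 3 and 7 fell without all WT arrays 1. Mzb1, a chaperone of immunoglobulin assembly, read 5.05, 5.39 and 5.34 in WT cDC2 and 8.56, 8.37 and 9.18 in WT pDC (-3.44 ± 0.34, adjusted p = 1.1e-07). Sec24d, a coat protein of vesicles that leave the endoplasmic reticulum, read 5.12, 5.13 and 5.58 in WT cDC2 and 7.82, 6.93 and 7.73 in WT pDC (-2.22 ± 0.30, adjusted p = 9.2e-06). Neither overlapped between the groups. The disulfide isomerase Pdia4 (-1.48 ± 0.28), Hsp90b1 and the secreted stress protein Manf (-1.18 ± 0.26) fell as well. Xbp1, the transcription factor of the secretory programme, read 8.83, 8.45 and 9.58 in WT cDC2 and 10.75, 9.12 and 11.50 in WT pDC, overlapping in WT pDC array 2, and fell in the fit of all arrays (-1.50 ± 0.45, adjusted p = 0.0269, but 0.09 to 0.256 without cDC2 array 1, cDC2 array 2, pDC array 1, pDC array 3 or all WT arrays 1 (difference down to -0.97)).

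pDC are known to carry transcripts of the lymphoid lineage. Of 25 tested genes of that kind 12 fell and 1 rose, with a median of -0.93. Dntt, which adds nucleotides to antigen receptor joints, read 3.16, 3.23 and 3.71 in WT cDC2 and 7.84, 7.63 and 8.37 in WT pDC: the WT cDC2 arrays were at background and the WT pDC arrays well above it. Il7r, the receptor of a lymphoid survival cytokine, read 6.45, 7.25 and 7.12 in WT cDC2 and 9.96, 9.47 and 10.10 in WT pDC (-2.90 ± 0.26, adjusted p = 2.04e-08). Ptprcap (-2.44 ± 0.34), Cd28 (-2.43 ± 0.37), Gimap6 (-2.13 ± 0.25) and Cd79a (-1.78 ± 0.43) fell without overlap. Themis2 was the rise (1.92 ± 0.31).

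Of 37 tested lysosomal genes 4 rose and 6 fell, and 2 rose without WT cDC2 array 1 and 2 fell without all WT arrays 1. Cathepsin B (Ctsb, -1.67 ± 0.37, adjusted p = 0.00296, but 0.0696 without all WT arrays 1), granulin (Grn, -2.19 ± 0.38) and the cholesterol exporter Npc1 (-1.32 ± 0.29, adjusted p = 0.00212, but 0.0868 without all WT arrays 1) were lower beside cathepsin L, while cathepsin E (Ctse) read 11.56, 9.65 and 10.63 in WT cDC2 and 7.65, 7.64 and 7.98 in WT pDC and was 7.23-fold higher (2.85 ± 0.48, adjusted p = 0.000154). The tetraspanin Cd63 read 10.00, 10.68 and 11.51 in WT cDC2 and 4.49, 8.89 and 7.08 in WT pDC, lowest in WT pDC array 1, and rose (3.91 ± 0.78, adjusted p = 0.000915). Of 23 tested genes of cholesterol synthesis 3 fell and none rose: Msmo1 (-2.06 ± 0.34), Sc5d (-1.40 ± 0.31) and Insig1 (-0.90 ± 0.28, adjusted p = 0.0336, but 0.0512 to 0.116 without cDC2 array 1, cDC2 array 2, cDC2 array 3, pDC array 1, pDC array 2, pDC array 3 or all WT arrays 1). Of the 23, 8 fell with the replicate block. Of 37 tested respiratory chain genes 1 changed, Cox6a2, a heart and muscle subunit that pDC express. It read 6.25, 6.18 and 6.05 in WT cDC2 and 8.90, 9.34 and 9.91 in WT pDC (-3.22 ± 0.26, adjusted p = 6.19e-09). In glycolysis the kinase Pfkfb3 rose (2.31 ± 0.24) and lactate dehydrogenase B (Ldhb) fell (-2.03 ± 0.29), while Hk2 (0.91 ± 0.28, adjusted p = 0.0296, but 0.0534 to 0.337 without cDC2 array 1, cDC2 array 2, pDC array 1, pDC array 3 or all WT arrays 1 or with the replicate block (difference down to 0.59)) and Slc16a3 (0.73 ± 0.22, adjusted p = 0.0315, but 0.0805 to 0.23 without cDC2 array 3, pDC array 1, pDC array 3 or all WT arrays 1 or with the replicate block (difference down to 0.48)) were the other 2 of 4 calls among 21 tested (1 rose without WT pDC array 1, WT pDC array 3 or all WT arrays 1 or with the replicate block).

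Of 31 tested cytokine and chemokine genes 11 rose and 2 fell, with a median of 1.11 (17 rose with the replicate block). Il1b, the inflammasome-processed cytokine, read 10.66, 11.24 and 11.05 in WT cDC2 and 6.02, 7.98 and 7.25 in WT pDC. It was 15-fold higher, with no overlap (3.90 ± 0.40, adjusted p = 2.14e-07). Cxcl16, the membrane-bound ligand of CXCR6, read 9.49, 9.90 and 10.00 in WT cDC2 and 4.53, 4.87 and 6.02 in WT pDC. The T cell attractants Ccl5 (2.68 ± 0.55) and Cxcl9 (2.38 ± 0.43) and the shared subunit of IL-12 and IL-23, Il12b (1.56 ± 0.32, adjusted p = 0.00143, but 0.0536 without all WT arrays 1), rose, although Cxcl9 and Il12b were higher still in WT cDC1, at 10.90 and 9.96. Besides Grn, Il12a, the other chain of IL-12, fell (-1.46 ± 0.22), with WT cDC2 arrays at background.

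Chemokine receptors differed in both directions, 3 up and 6 down of 19 tested (5 rose with the replicate block). Cxcr3, the receptor for CXCL9 and CXCL10, read 5.97, 6.63 and 6.62 in WT cDC2 and 9.72, 9.67 and 10.70 in WT pDC and fell with Ccr9 (-3.62 ± 0.33, adjusted p = 2.61e-08). Ccr2, which guides cells out of bone marrow, read 5.46, 6.59 and 6.08 in WT cDC2 and 7.01, 7.73 and 7.80 in WT pDC (-1.47 ± 0.31, adjusted p = 0.00144). Ccr7, the receptor for homing to T cell zones, read 10.74, 10.80 and 11.14 in WT cDC2 and 8.54, 8.37 and 9.67 in WT pDC and rose (2.04 ± 0.31, adjusted p = 3.77e-05), and the atypical receptor Ccrl2 read 8.74, 8.38 and 8.86 in WT cDC2 and 4.68, 5.04 and 5.12 in WT pDC (3.72 ± 0.24, adjusted p = 1.68e-10). Among 35 tested cytokine and growth factor receptors 11 rose and 6 fell. Kit, the stem cell factor receptor, read 10.87, 10.10 and 10.50 in WT cDC2 and 7.55, 6.80 and 7.84 in WT pDC, and the decoy receptor Il1r2 read 11.77, 12.05 and 10.94 in WT cDC2 and 7.69, 8.78 and 7.55 in WT pDC (3.58 ± 0.51, adjusted p = 1.83e-05). In both, every WT cDC2 array lay above every WT pDC array. Csf1r (2.11 ± 0.28), Il13ra1 (2.10 ± 0.44) and Tnfrsf1b (1.69 ± 0.32) were higher, and Tgfbr1 (-2.23 ± 0.25), Il1rl2 (-2.22 ± 0.45) and Il17rb (-1.70 ± 0.23) lower, beside Il7r.

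Adhesion molecules and lectins separated the cell types gene by gene. Of 31 tested integrin and adhesion genes 8 rose and 3 fell (5 fell with the replicate block). Cdh1 (E-cadherin) read 4.37, 4.64 and 4.80 in WT cDC2 and 9.74, 7.31 and 8.59 in WT pDC and fell (-3.94 ± 0.51, adjusted p = 5.7e-06), and the sialomucin Cd164 (-1.86 ± 0.19) and Jaml (-1.35 ± 0.42, adjusted p = 0.033, but 0.104 to 0.304 without cDC2 array 1, cDC2 array 2, pDC array 1, pDC array 3 or all WT arrays 1) fell with it. The integrin chain Itga5 (1.74 ± 0.29) and the tetraspanin Cd81 (2.15 ± 0.38) rose. Of 31 C-type lectins 9 rose and 6 fell. Among the Clec4 genes of the list, 6 rose and 3 (Clec4b2, Clec4d and Clec4e) did not pass. Clec4a4 read 7.27, 7.35 and 8.04 in WT cDC2 and 3.11, 3.03 and 3.30 in WT pDC, Clec4b1 read 6.28, 8.33 and 8.21 in WT cDC2 and 2.93, 3.45 and 3.07 in WT pDC, and Clec4a2 and Clec4a1 differed by 2.83 ± 0.37 and 2.88 ± 0.35. No WT pDC array of Clec4a4, Clec4b1, Clec4a2 or Clec4a1 was above 5.14. Members of multigene families such as Clec4a, Cd209, Klra, Ly6 and Ifitm may share probe sequence with close relatives. Cd209d, of the DC-SIGN family, read 4.81, 6.17 and 5.68 in WT cDC2 and 10.69, 10.85 and 11.86 in WT pDC and Klra17 read 4.51, 5.05 and 5.96 in WT cDC2 and 9.12, 9.60 and 9.95 in WT pDC. Both showed the reverse pattern.

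Of 28 Siglecs and paired regulatory receptors 6 rose and 6 fell. Cd300c read 6.57, 7.29 and 6.80 in WT cDC2 and 11.17, 10.94 and 11.99 in WT pDC, and the collagen receptor Lair1 read 8.03, 7.62 and 7.75 in WT cDC2 and 10.88, 10.43 and 10.91 in WT pDC (-2.94 ± 0.23, adjusted p = 3.78e-09). Treml2 (-2.03 ± 0.23), Cd33 (-1.79 ± 0.29) and Ceacam1 (-1.68 ± 0.26) fell beside them, without overlap. Cd300ld (2.69 ± 0.32), Treml4 (2.36 ± 0.53) and the B cell Siglec Cd22 (1.60 ± 0.29) rose. Among 11 Fc receptor genes the Fc receptor-like genes Fcrla and Fcrl1 went opposite ways. Fcrla read 4.88, 5.09 and 5.25 in WT cDC2 and 9.99, 7.75 and 10.07 in WT pDC and Fcrl1 read 8.49, 8.81 and 9.69 in WT cDC2 and 5.49, 6.95 and 7.13 in WT pDC (2.48 ± 0.47, adjusted p = 0.0005).

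Genes of calcium-binding and actin-regulating proteins were split, 11 up and 4 down of 37 tested. S100a4 read 10.33, 11.39 and 11.17 in WT cDC2 and 6.38, 8.07 and 7.65 in WT pDC and was 12.1-fold higher (3.60 ± 0.42, adjusted p = 1.16e-06). Anxa3 (3.15 ± 0.30), Anxa1 (2.30 ± 0.43), the bundling protein Fscn1 (2.72 ± 0.39) and Marcksl1 (3.32 ± 0.67) rose. Galectin 1 (Lgals1) read 8.76, 9.72 and 9.77 in WT cDC2 and 12.20, 11.97 and 12.79 in WT pDC and fell (-2.90 ± 0.36, adjusted p = 2.86e-06), with the capping protein Capg (-2.64 ± 0.41), Ahnak (-1.90 ± 0.28) and Tagln2 (-0.97 ± 0.24, adjusted p = 0.0062, but 0.0512 to 0.181 without pDC array 1 or all WT arrays 1 or with the replicate block). Of 15 tested eicosanoid genes 5 rose and 1 fell. The phospholipase Pla2g4a, which frees arachidonic acid, rose with Ptgs2 (2.28 ± 0.37), as did leukotriene A4 hydrolase (Lta4h, 1.35 ± 0.32), Pla2g7 (1.56 ± 0.32) and the prostaglandin-degrading Hpgd (2.26 ± 0.62, adjusted p = 0.0159, but 0.0613 to 0.122 without cDC2 array 3, pDC array 1 or pDC array 3 or with the replicate block). The glutathione transferase Mgst2 read 5.94, 6.75 and 6.66 in WT cDC2 and 9.76, 9.83 and 10.42 in WT pDC and fell (-3.55 ± 0.45, adjusted p = 4.55e-06). Of 8 tested NADPH oxidase genes the catalytic subunit Cybb fell (-1.40 ± 0.37, adjusted p = 0.0122, but 0.0581 to 0.0695 without pDC array 1 or all WT arrays 1) and Ncf4 rose (1.16 ± 0.33, adjusted p = 0.0193, but 0.0554 to 0.151 without cDC2 array 1, cDC2 array 3, pDC array 1, pDC array 2 or all WT arrays 1).

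Cell cycle genes were higher in WT cDC2. All 36 tested genes had a difference above 0, 26 rose and none fell, with a median of 1.86.  Mki67, the proliferation antigen, read 10.41, 9.29 and 9.41 in WT cDC2 and 6.26, 6.38 and 6.31 in WT pDC and was 10.4-fold higher (3.38 ± 0.47, adjusted p = 1.38e-05). The mitotic cyclins Ccna2 (2.96 ± 0.35) and Ccnb2 (2.89 ± 0.31), the topoisomerase Top2a (2.92 ± 0.32), the kinase Plk1 (2.93 ± 0.51), and Ccne1 (2.92 ± 0.42) and Rrm2 (2.65 ± 0.42) of S phase rose with it. Without 1 array at a time 23 to 28 rose. The mean level of the list was highest in WT cDC2 array 1, at 8.26, against 7.39 and 7.69 in arrays 2 and 3 and 5.95 to 6.24 in the WT pDC arrays. Erythroid and platelet markers were also highest in that array, at 7.61, against 6.50 and 7.46 in arrays 2 and 3. Their part in the result was not tested. Pcna read 11.92, 11.56 and 11.97 in WT cDC2 and 10.71, 10.78 and 11.88 in WT pDC, high everywhere, and did not pass (0.70 ± 0.34, adjusted p = 0.232, but 0.0408 without pDC array 3). Of 16 tested BCL2 family genes 3 rose and none fell, and 1 rose without WT pDC array 2. They were Bcl2a1c (3.83 ± 0.34), Pmaip1 (1.38 ± 0.36, adjusted p = 0.0115, but 0.063 to 0.0635 without cDC2 array 1 or pDC array 2) and Bcl2l1 (0.75 ± 0.22, adjusted p = 0.0265, but 0.0606 to 0.135 without cDC2 array 3, pDC array 1, pDC array 2 or all WT arrays 1). Bcl2a1c has near-identical copies in the mouse genome, so its probe set may read several genes.

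Immediate-early genes, which respond within minutes to stimulation and to tissue dissociation, were higher in WT cDC2. Of 28 tested genes of this kind and of the heat shock response 12 rose and none fell, with a median of 1.18. Egr2 read 10.67, 10.02 and 10.52 in WT cDC2 and 6.60, 6.88 and 7.44 in WT pDC (3.43 ± 0.52, adjusted p = 3.94e-05), and Nr4a2 read 10.75, 10.92 and 11.21 in WT cDC2 and 7.54, 8.27 and 8.86 in WT pDC. Fosl2 (2.78 ± 0.34), Junb (1.88 ± 0.38) and Dusp2 (1.86 ± 0.40) rose too. Dusp1 read 12.89, 13.08 and 13.13 in WT cDC2 and 11.33, 9.41 and 11.82 in WT pDC, high in all arrays and lowest in WT pDC array 2 (2.18 ± 0.55, adjusted p = 0.00806, but 0.0782 without pDC array 2). The heat shock gene Hspa1a read 10.05, 8.83 and 12.73 in WT cDC2 and 6.89, 7.38 and 12.21 in WT pDC: it was highest in array 3 of each cell type and did not pass (1.71 ± 1.61, adjusted p = 0.65). In other fits, 7 rose without all WT arrays 1. The list means were 9.62 to 10.43 in WT cDC2 and 8.11 to 9.61 in WT pDC, and the part of cell handling in this difference was not tested.

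**Figure D4:**
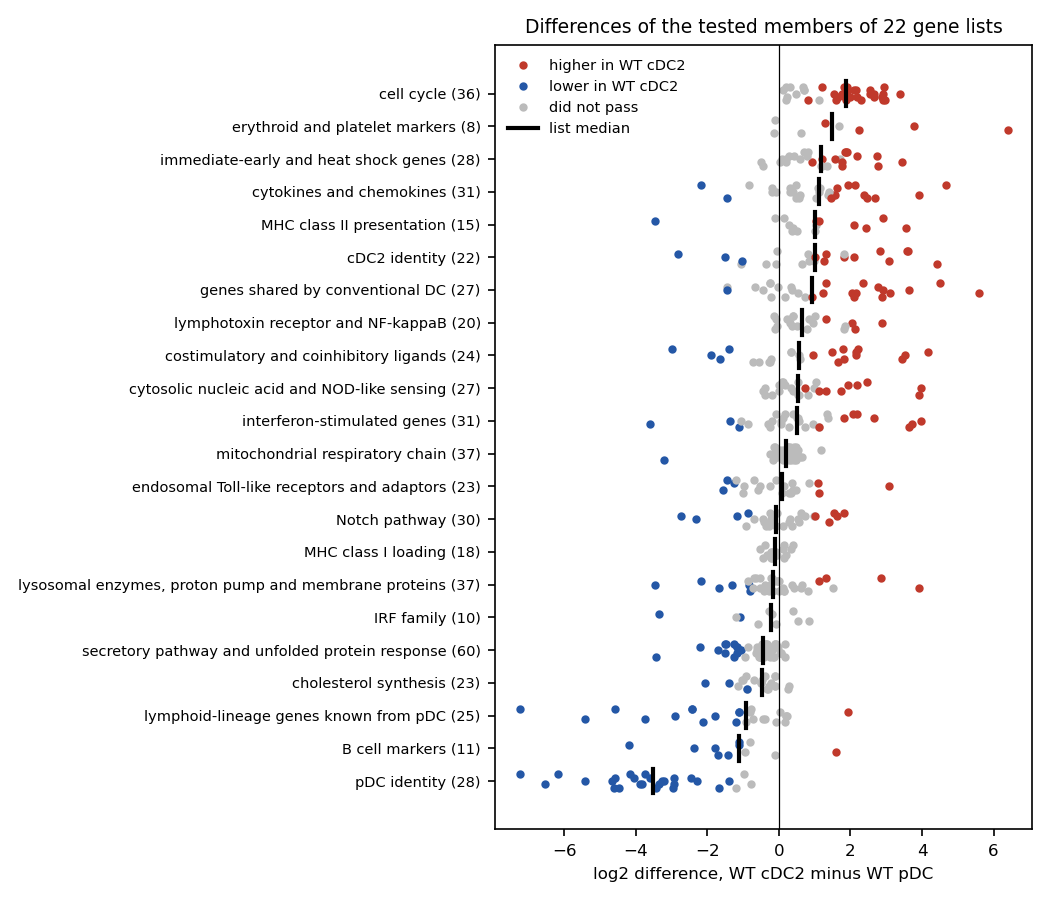
Log2 difference WT cDC2 minus WT pDC (horizontal axis) of each tested member of 22 gene lists (rows, with the number of tested members); colours give the call in limma and black bars the list median. The pDC identity list has the lowest median (-3.52) and the cell cycle list the highest (1.86), and the MHC class I list holds no called gene.

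The same pair of cell types was measured in mice labelled Bcl6cKO (cKO), on 10 arrays that are not shared with the WT comparison although the fit pools the spread. There 1642 genes (13.5% of those tested) were higher in cDC2 than in pDC and 884 (7.27%) lower. Of the 1548 genes called in WT, 1315 were called the same way, 5 the opposite way, and 1528 had the same sign. The count of 1315 was 874 in the fit of the 6 WT arrays alone and 795 without array 1 of every WT cell type. Bcl6 read 7.83, 7.06 and 7.02 in WT cDC2 and 8.40, 8.61, 7.51, 7.51 and 7.97 in cKO cDC2, and 6.33, 5.40 and 5.88 in WT pDC and 6.03, 5.15, 5.34, 6.42 and 5.65 in cKO pDC. The probe set was thus not lower in the arrays labelled cKO. Which exons were removed and where the probe set lies are not given in the sources used here, so Bcl6 does not check these labels.

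Several of the genes above had these differences in the arrays labelled cKO. Siglech differed by -6.61, Ly6d by -7.32, Tcf4 by -2.44, Irf8 by -3.27, Ptgs2 by 6.24 and Mki67 by 3.28. Among the genes named, 20 had a difference that was itself unequal between the genotypes (adjusted p below 0.05 for the interaction, 59 genes of all tested). For Cd209d the WT difference of -5.59 stood beside 0.37 in the cKO arrays, and for Capg -2.64 stood beside 1.17. Dtx1 differed by 1.83 in WT and by 0.28 in cKO.

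**Figure D5:**
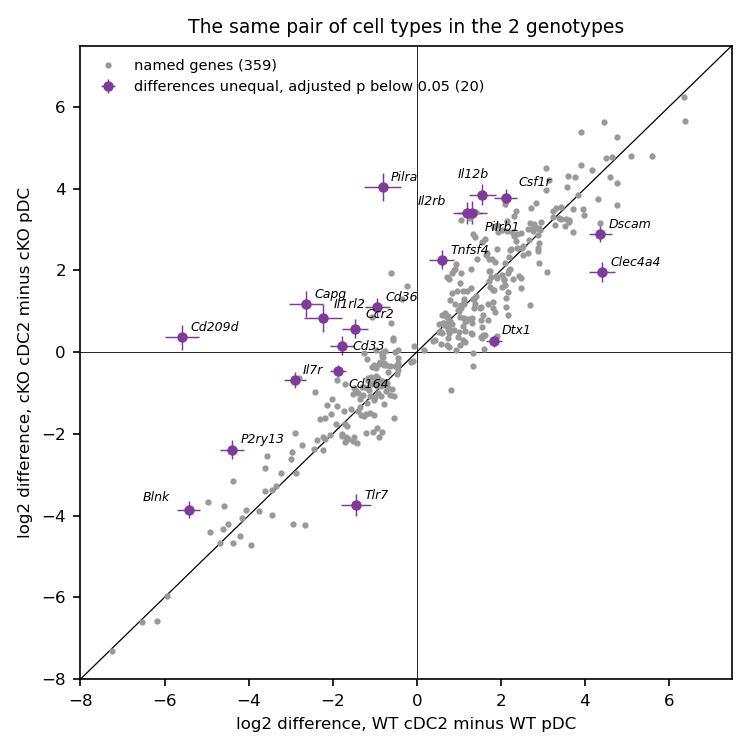
Log2 difference between cDC2 and pDC in WT (horizontal axis, 3 against 3 arrays) and in cKO (vertical axis, 5 against 5 arrays) for the 379 genes named by the rule; the diagonal marks equal differences and bars are limma SEs of the 20 genes whose differences were unequal. Cd209d, Pilra and Capg lie farthest above the diagonal, and Tlr7, Clec4a4 and Dtx1 lie below it.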

How the data were processed

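RNA of sorted spleen cells was labelled with the Affymetrix WT Pico kit, per the labels' protocols, and hybridised to arrays. The values used are the deposited intensities of the series matrix, on a linear scale, which the submitters' processing notes credit to Affymetrix Expression Console and RMA, a method that corrects background, normalizes and summarises the probes of a probe set; versions and roles are not given there. The array medians differed between arrays numbered alike and others, from 30.0 to 39.8 in the 6 arrays, so the deposited intensities are not on 1 common scale across numbers. Of 28853 probe sets, 21789 were paired with 1 gene by GEO's platform annotation, 1621 with several and 5443 were not in the table, and only the first kind was used. Intensities were log2 transformed without a pseudocount. A probe set was kept when above its array's median on at least 3 of 23 arrays, and each gene was represented by its brightest kept probe set on average, which left 12157 of 19938 genes. limma 3.58.1 (R 4.3.3, lmFit and eBayes, 17 residual degrees of freedom) fitted 6 group means without covariates, and p-values were adjusted by Benjamini-Hochberg at 0.05 over all genes.

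WT cDC2 and WT pDC arrays with equal numbers shared deviations from their group means, which correlated at 0.60, 0.38 and 0.54. Unequal numbers gave -0.40 to -0.063, in part by arithmetic, since the deviations of a group cancel out for each gene. No label says what an array number shares. A fit with the replicate block was therefore an alternative, among 18 in all. The fitting script was tested on simulated data first.

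The genes named are the 15 largest rises and falls without overlap, up to 10 called and 3 uncalled members of each of 45 gene lists, and 12 fixed genes (Tcf4, Id2, Irf4, Irf8, Siglech, Bst2, Sirpa, Itgam, Itgax, Zbtb46, Flt3 and Bcl6). Members and lists were chosen with earlier results of these data known, so no list is independent evidence of its direction. Kmo, Zeb2, Il12a, Cd200, Lag3, Ly6e, Tagln2, Cd209a, Clec4b2, Clec4d, Clec4e, Eaf2, Plac8 and Bcl11a, the markers C1qa, Cd5l, Pf4, Ppbp, Ms4a1, Jchain, Gzma and Ngp, and Xist and Xcr1 were added after their values were seen where the rule did not name them. Of 1009 listed genes 870 were tested. Promoter windows came from RefSeq (GRCm38.p6).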

Additional observations from a re-analysis of the deposited data

Results flagged for a closer look

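Differences between cDC2 and pDC that were unequal in the 2 genotypes are given here, as the value in the arrays labelled cKO minus the value in WT, with the adjusted p of limma's interaction term over all genes tested. In all, 59 genes passed, and 20 of them are among the genes named. The cKO arrays are other arrays of other mice, the Bcl6 probe set was not lower in them, and no cause was tested. Xist read at most 5.07 in the cKO cDC2 and cKO pDC arrays, against 11.28 and 11.89 in arrays 1 of WT cDC2 and WT pDC.

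The lectin Cd209d changed most, from -5.59 in WT to 0.37 in cKO, a shift of 5.95 (adjusted p = 2.5e-07). The paired receptor Pilra went from -0.81 to 4.04, a shift of 4.85 (adjusted p = 4.13e-05), and its partner Pilrb1, whose WT rise had an adjusted p of 0.0541 to 0.125 without WT cDC2 array 3, WT pDC array 2, WT pDC array 3 or with the replicate block, from 1.31 to 3.41, a shift of 2.1 (adjusted p = 0.0315). The capping protein Capg went from -2.64 to 1.17, a shift of 3.81 (adjusted p = 0.000378). The IL-36 receptor Il1rl2 went from -2.22 to 0.83, a shift of 3.05 (adjusted p = 0.00832). Ccr2 went from -1.47 to 0.57, a shift of 2.04 (adjusted p = 0.00943), Cd33 from -1.79 to 0.16, a shift of 1.95 (adjusted p = 0.00832), and Cd36 from -0.94 to 1.09, a shift of 2.03 (adjusted p = 0.00832).

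Several genes lower in WT cDC2 had a smaller difference between the cell types in cKO, and such a shift may come from either cell type. Il7r went from -2.90 to -0.68, a shift of 2.22 (adjusted p = 0.00087). P2ry13 went from -4.40 to -2.38, a shift of 2.01 (adjusted p = 0.00828). Blnk went from -5.42 to -3.85, a shift of 1.57 (adjusted p = 0.0335), and Cd164 from -1.86 to -0.47, a shift of 1.4 (adjusted p = 0.00415). Tlr7 moved the other way, from -1.45 to -3.74, a shift of -2.29 (adjusted p = 0.0156).

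Among genes higher in WT cDC2, Il12b went from 1.56 to 3.85, a shift of 2.29 (adjusted p = 0.00618). Il2rb, whose WT rise had an adjusted p of 0.0689 to 0.0921 without WT cDC2 array 1, WT cDC2 array 3, WT pDC array 3 or all WT arrays 1, went from 1.21 to 3.40, a shift of 2.19 (adjusted p = 0.0119), and Csf1r from 2.11 to 3.77, a shift of 1.65 (adjusted p = 0.0286). Tnfsf4, not called in WT, went from 0.59 to 2.26, a shift of 1.66 (adjusted p = 0.0461). Clec4a4 went from 4.41 to 1.96, a shift of -2.45 (adjusted p = 0.0024), Dtx1 from 1.83 to 0.28, a shift of -1.55 (adjusted p = 0.00173), and Dscam from 4.37 to 2.89, a shift of -1.48 (adjusted p = 0.0452).

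In 1 of 82 groups of arrays looked at, a single array stood apart by Dixon's criterion, which chance meets in about 1 in 20 groups. The sodium pump subunit Atp1b1 read 9.24 in cKO pDC array 3, where the nearest other array of its group read 10.66.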

How the results depend on the processing

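The 964 rises, 584 falls and 1315 calls shared with the cKO arrays became 595, 342 and 874 in a fit of the 6 arrays alone without the replicate block, where 4 residual degrees of freedom were left. With a term for bands of array medians, which were found from the data, they became 2109, 1430 and 2766. Quantile normalization gave 976 falls (1203 rises), and 55.2% of its calls were rises, against 62.3%. Leaving out 1 array at a time gave 719 to 1100 rises, 435 to 713 falls and 1034 to 1282 shared calls, with rises at 50.8% of the calls without WT pDC array 2 and at 71.7% without WT pDC array 3. Without array 1 of every WT cell type the counts were 554, 336 and 795. With the replicate block, which leaves 2 residual degrees of freedom, 1172 rose and 760 fell, 865 and 539 of them among the 964 and 584, and 1445 were shared with the cKO arrays. The other settings (median subtraction, no filter, a stricter filter, an added 16, array weights, mean of probe sets, trend and robust moderation) kept all 3 counts within 1.5 times. Of the 379 genes named none reversed in a call, and 171 of the 252 called ones kept their call in all 18 alternatives. Of the 252, 62 lost it without some single array and 13 with the replicate block, while 95 of the 127 uncalled ones passed in some alternative. The fit of the 6 arrays alone without the replicate block ended 54 of the 252 calls, and array weights ended 27. Leaving out the filter ended 12, quantile normalization 6, median subtraction 6, an added 16 ended 3, mean of probe sets 1 and trend and robust moderation 1. Losses in these fits, the fit of the 6 arrays alone and array weights included, are not marked beside the genes. Without array 1 of every WT cell type 57 calls ended. Levels near the array medians limit the size of a difference, and 3 arrays per group its precision.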
